A study of Homo sapiens with 9 samples.

Results

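The 9 genes described here encode the enzymes of V(D)J recombination and the end-joining machinery that completes it: RAG1, RAG2, DNTT, DCLRE1C, PRKDC, LIG4, XRCC4, XRCC5 and XRCC6. They are 9 of the 58096 genes in the count tables, were picked by name for this pathway, and were picked with earlier results of these libraries known, above all the values of DNTT, RAG1 and RAG2 with TLX1 siRNA and with scrambled siRNA. Differences between TLX1 siRNA and scrambled siRNA are therefore given as a description of these libraries, without a p-value for any of the 9 genes. Where 1 of them is said to be called or to pass a threshold in this contrast, that is description too and is read as no support. ALL-SIL, a human T-cell acute lymphoblastic leukaemia line that carries high TLX1, a homeobox transcription factor, was electroporated with the TLX1 siRNA s46, the TLX1 siRNA s47 or a scrambled siRNA, and total RNA was taken at 24 h. Each of the 3 groups has 3 libraries, numbered 1 to 3. The labels give a dose, 400 nM, for the scrambled siRNA only, name no other agent, and do not say whether the libraries of a group come from separate cultures, so the spread between them may be technical. All results come from 1 cell line.

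V(D)J recombination assembles antigen receptor genes in developing lymphocytes. The RAG1 and RAG2 proteins cut the DNA beside receptor segments and leave hairpin-sealed ends; the kinase DNA-PKcs (gene PRKDC) and the nuclease Artemis (DCLRE1C) open the hairpins, and the Ku70 and Ku80 proteins (XRCC6 and XRCC5) hold the broken ends. Terminal transferase (DNTT) adds untemplated bases at the junction, and DNA ligase IV (LIG4) with its partner XRCC4 seals it. RAG1, RAG2 and DNTT are switched on in immature lymphocytes, including cortical thymocytes, whereas the end-joining genes act in most cells.

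The libraries held 21134650 to 33393740 reads assigned to the sense strand of genes, the lowest being scrambled replicate 1. That library also had 14.4% of its reads mapped to several places, against 6.36% to 7.34% in the other 8, and its log2 expression correlated with the other scrambled libraries at r = 0.967 and 0.975, against 0.989 between those. Log2 fold changes without it are given for the V(D)J recombination genes other than DCLRE1C, and not for genes of the related lists. TLX1, the targeted gene, lay at 63.5 to 87.3 CPM (read counts scaled to library size with edgeR's TMM factors) in the 6 TLX1 siRNA libraries and at 171 to 198 CPM in the 3 scrambled libraries. All 10 T-lineage markers were detected, with summed levels of 1896 to 2168 CPM with TLX1 siRNA and 1803 to 2011 CPM with scrambled siRNA, though CD2 stayed between 1.34 and 5.75 CPM. The 7 B-lineage markers summed to 10.5 to 14.8 CPM and 11.1 to 13.6 CPM, mostly from CD79A and CD79B. Myeloid, natural killer and erythroid or megakaryocyte lists stayed below 1 CPM in sum in every library, with CD33, CEBPA, KLRF1, NCR1, HBG1 and PF4 at 0 throughout.

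RAG1, the catalytic subunit of the recombinase, had 27.5, 61.8 and 91.6 CPM in s46 libraries 1, 2 and 3, and 37.0, 61.4 and 99.8 CPM in s47 libraries 1, 2 and 3, against 17.0, 30.1 and 37.2 CPM in scrambled libraries 1, 2 and 3. Its level was lowest in the library numbered 1 and highest in that numbered 3 in each group, and the groups overlapped: 4 of the 6 TLX1 siRNA libraries were above every scrambled one, and both exceptions were libraries numbered 1. Its log2 fold change was 1.17 ± 0.44 (SE, both siRNAs against scrambled), with 1.10 for s46 and 1.23 for s47. Without s46 replicate 3 the value for s46 was 0.67, and without s47 replicate 3 the value for s47 was 0.81. The gene spans chr11:36510709-36593156 on the plus strand (GRCh38).

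RAG2, the recombinase's regulatory subunit that reads histone H3 trimethylated at lysine 4, had 11.6, 15.8 and 31.7 CPM with s46 and 15.7, 20.6 and 39.8 CPM with s47, against 4.61, 8.89 and 14.9 CPM with scrambled siRNA. The libraries stood in the same order as for RAG1, and 5 of 6 TLX1 siRNA libraries were above every scrambled one, the exception being s46 library 1. Its log2 fold change was 1.24 ± 0.47, with 1.05 for s46 and 1.42 for s47. Without s46 replicate 3 the value for s46 was 0.53, and without s47 replicate 3 the value for s47 was 0.94. In the fit by group alone, whose error takes in the wide spread between libraries of a group, neither RAG gene passed the threshold in any of these 3 comparisons. That outcome depends on the design of the fit. With the replicate numbers as a block, a pairing that the labels do not state, both passed in all 3. The values for both siRNAs were then 1.11 ± 0.12 for RAG1 and 1.26 ± 0.12 for RAG2. Each RAG gene was higher with TLX1 siRNA in all 6 pairs with the scrambled library of the same number, pairs that reuse 3 scrambled libraries. The same held for DNTT, LIG4 and DCLRE1C. The share of all genes tested for which it holds was not counted, so nothing is read from it. Scrambled replicate 1 was the lowest library for both RAG genes. In the fit by group without it, the log2 fold changes were 0.91 for RAG1 and 0.92 for RAG2. Without scrambled replicate 3 they were 1.42 and 1.72.

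DNTT had 29.9, 16.5 and 23.8 CPM with s46 and 36.0, 21.8 and 32.9 CPM with s47, against 11.6, 7.82 and 10.02 CPM with scrambled siRNA. All 6 TLX1 siRNA libraries lay above the 3 scrambled ones. In each group the library numbered 2 was lowest and that numbered 1 highest, which is not the order seen for the RAG genes. DNTT averaged 26.8 ± 7.35 CPM with TLX1 siRNA (SD, n = 6) and 9.79 ± 1.88 CPM with scrambled siRNA (SD, n = 3), a log2 fold change of 1.44 ± 0.22, with 1.26 for s46 and 1.63 for s47. It passed the threshold in edgeR's quasi-likelihood test over all 16072 genes tested for both siRNAs together and for s47, and not for s46. The call for both siRNAs was lost without scrambled replicate 3, and the call for s47 without s47 replicate 1, s47 replicate 3 or scrambled replicate 3. Without scrambled replicate 1 the log2 fold change of DNTT for both siRNAs was 1.58. DNTT lies at chr10:96304396-96338564 on the plus strand (GRCh38).

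**Figure D1:**
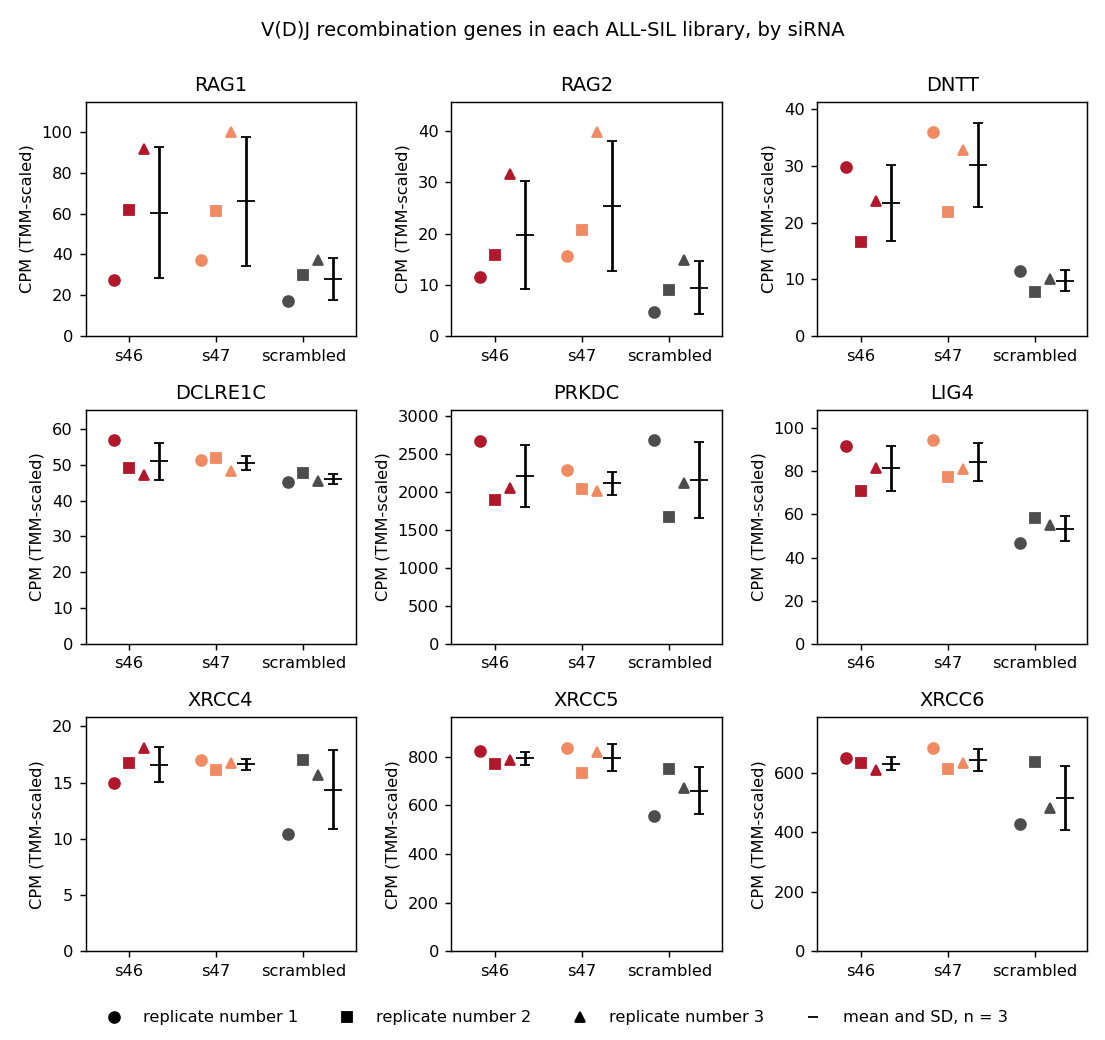
Scaled CPM (vertical axes from 0, a scale for each gene) of the 9 genes in every library, with s46 and s47 left of scrambled siRNA, marker shapes for the replicate number, and the mean and SD of 3 libraries beside them. All 6 TLX1 siRNA libraries lie above the 3 scrambled libraries for DNTT and LIG4, while RAG1 and RAG2 overlap and spread widely within each group.

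Within each group, the RAG genes varied more than any of the end-joining genes. The coefficient of variation over 3 libraries was 53.2% for RAG1 and 53.8% for RAG2 with s46, 47.9% and 50.1% with s47, and 36.6% and 54.6% with scrambled siRNA. DNTT varied by 28.6% with s46, 24.6% with s47 and 19.2% with scrambled siRNA, whereas the 6 end-joining genes varied by 3.33% (XRCC5) to 18.5% (PRKDC) with s46, 2.92% (XRCC4) to 10.7% (LIG4) with s47 and 3.03% (DCLRE1C) to 24.3% (XRCC4) with scrambled siRNA. With scrambled siRNA XRCC4, PRKDC and XRCC6 thus varied more than DNTT. Over the 9 libraries the highest level was 8.63 times the lowest for RAG2, 5.88 times for RAG1 and 4.60 times for DNTT, against 2.02 times for LIG4, 1.74 for XRCC4, 1.60 for both XRCC6 and PRKDC, 1.5 for XRCC5 and 1.26 for DCLRE1C. The 3 replicate numbers stood in 1 order in all 3 groups for RAG1, RAG2 and DNTT, 3 of the 9 genes, against 9.31% of all genes tested.

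RAG1 and RAG2 kept a narrower ratio between libraries than RAG1 and DNTT. Per kilobase of merged exons, the level of RAG1 over that of RAG2 ran from 1.06 to 1.76 within the 9 libraries, averaging 1.37 with s46, 1.17 with s47 and 1.43 with scrambled siRNA. The level of DNTT over that of RAG1 ran from 1.03 to 4.31, and the values above 2 all came from libraries numbered 1: 4.31 with s46, 3.85 with s47 and 2.70 with scrambled siRNA. In the other 6 libraries it was between 1.03 and 1.41.

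**Figure D2:**
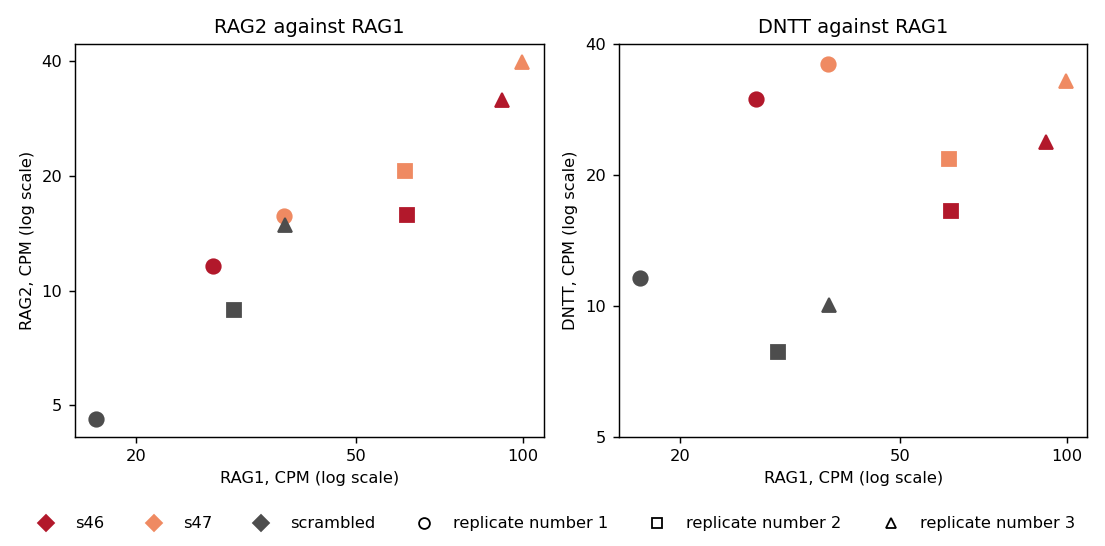
CPM of RAG2 (left) and of DNTT (right) against CPM of RAG1, log scales on all axes, with 1 point per library, colours for the siRNA and shapes for the replicate number. RAG2 is highest in the s46 and s47 libraries numbered 3, where RAG1 is highest too, whereas DNTT is 29.9 and 36.0 CPM in the s46 and s47 libraries numbered 1, where RAG1 is lowest within its group.

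By the root mean square difference of centred log2 CPM over the 9 libraries, RAG2 was the second nearest gene to RAG1 (0.26) and RAG1 the nearest to RAG2. PTPRU, a receptor-type tyrosine phosphatase, was nearest to RAG1 (0.21) and second nearest to RAG2 (0.32), and CD1E, a lipid-antigen-presenting molecule of the CD1 family, was among the nearest 5 of both. AC073343.2 and PIWIL3 completed the list for RAG1, and EPSTI1 and AC019129.2 that for RAG2. Their means over the 9 libraries were low, at 0.72, 1.02, 0.31 and 0.37 CPM in that order, too low for firm patterns. RNF152, at a mean of only 1.60 CPM, was nearest to DNTT (0.11). Next came CSGALNACT1 (0.29), TSHR, the thyrotropin receptor (0.31), LBH (0.34) and IL7R, the interleukin-7 receptor chain (0.35). By this measure RAG1 ranked 8086th (0.80) and RAG2 5099th (0.74) for DNTT. The measure also takes in the size of changes: a gene with no change at all would lie at 0.75 from DNTT. The Pearson correlation of DNTT over the 9 libraries was 0.46 with RAG1 and 0.60 with RAG2. Ranked by Pearson correlation instead, the nearest 5 shared 1 gene with the 5 named above for RAG1, 1 for DNTT and 0 for RAG2.

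The count tables are stranded, and the strand matters for this locus. RAG1 and RAG2 face each other and their annotated spans overlap by 17583 bases on opposite strands; RAG2 also overlaps the protein-coding C11orf74 by 3787 bases on the other strand. Reads on the strand opposite to the gene made up 4.25% to 10.3% of its reads for RAG1 and 8.41% to 26.2% for RAG2. For DCLRE1C, which overlaps SUV39H2 by 6957 bases on the other strand, the share was 25.3% to 30.8%. It was at most 5.49% for DNTT, whose start overlaps the antisense RNA AL136181.1 by 2300 bases, and below 1% for the other 5 genes. All levels given here use the sense strand, and counts made without regard to strand gave the same calls among the 9 genes.

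The nearest tested genes on the chromosomes were not called. TRAF6, a ubiquitin ligase of innate immune signalling, lies on the minus strand. Its start is 0.437 kb from the start of the annotated span of RAG1, not from that of RAG1's coding transcript. TRAF6 averaged 54.4 ± 1.28 CPM with TLX1 siRNA (SD, n = 6) and 49.4 ± 2.94 CPM with scrambled siRNA (SD, n = 3), a log2 fold change of 0.14 ± 0.09. PRR5L, 45.5 kb away, had -0.09 ± 0.16, and AC087277.2, a transcript within its span, -0.67 ± 0.49 at a mean below 1 CPM. On the other side of RAG2 the next tested genes were API5 (0.30 ± 0.12), RF00019 (0.29 ± 0.47) and TTC17 (0.14 ± 0.10), all more than 6.7 Mb away. Beside DNTT, the antisense AL136181.1 had 0.32 ± 0.59 at a mean below 1 CPM, ZNF518A 0.04 ± 0.10 and CCNJ 0.39 ± 0.13 on one side. TM9SF3 had 0.23 ± 0.12, RPL13AP5 0.01 ± 0.20 and LCOR -0.30 ± 0.14 on the other. DNTT is on the same chromosome as TLX1, 4.79 Mb from it.

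**Figure D3:**
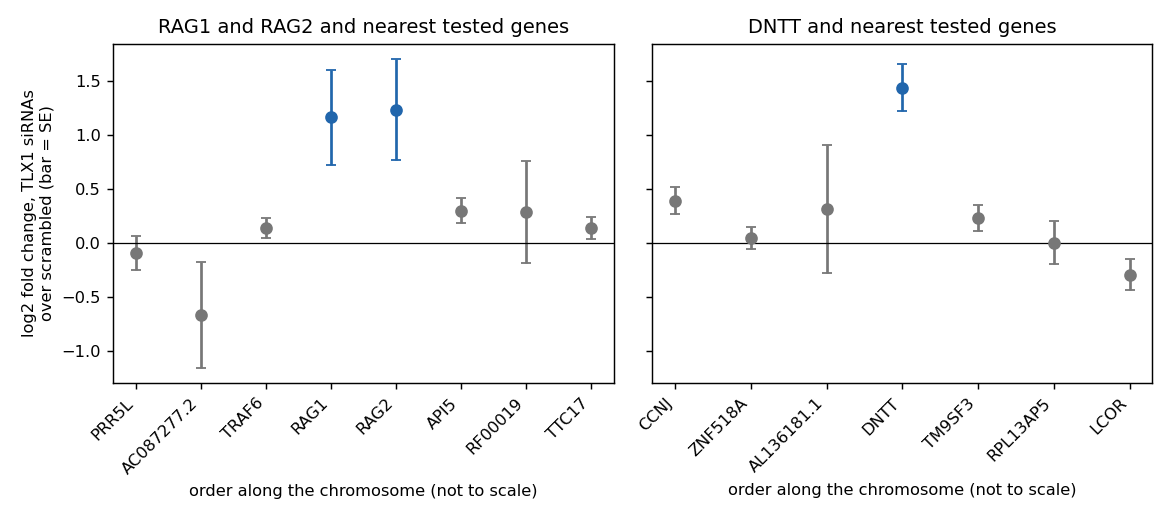
Log2 fold change (TLX1 siRNAs over scrambled siRNA, bars 1 SE) of RAG1, RAG2 and DNTT, in blue, and the 3 nearest tested genes on each side, in grey, in chromosome order and not to scale. The blue points lie between 1.17 and 1.44, and the grey ones between -0.67 and 0.39.

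The promoters of RAG2 and DNTT are shown because these 2 genes moved with RAG1 or were called and because their windows were poorer in G and C than most. In RefSeq's windows (GRCh38.p14, 250 bases before to 50 after the annotated start), windows of 7 of the 9 genes were used; that of RAG1 is not shown, since it lies far upstream of the start of the annotated coding transcript. The E-box CANNTG, the word bound by E proteins such as TCF3 and TCF12, is in capitals; it reads the same on both strands and occurs in 68.7% of the 35116 windows. The RAG2 window is chr11:36598187-36598486 on the minus strand, and the DNTT window chr10:96304184-96304483 on the plus strand.
RAG2: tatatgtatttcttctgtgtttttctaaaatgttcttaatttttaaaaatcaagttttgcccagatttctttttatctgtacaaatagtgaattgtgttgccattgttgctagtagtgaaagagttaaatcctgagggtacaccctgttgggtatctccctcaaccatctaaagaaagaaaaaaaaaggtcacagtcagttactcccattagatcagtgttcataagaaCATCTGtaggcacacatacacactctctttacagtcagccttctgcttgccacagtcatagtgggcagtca
DNTT: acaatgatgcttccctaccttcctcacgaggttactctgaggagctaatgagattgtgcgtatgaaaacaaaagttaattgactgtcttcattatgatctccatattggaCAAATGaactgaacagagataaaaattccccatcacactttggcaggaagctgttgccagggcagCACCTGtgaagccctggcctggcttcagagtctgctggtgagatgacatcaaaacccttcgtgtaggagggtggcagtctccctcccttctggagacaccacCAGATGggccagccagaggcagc

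The RAG2 window has 1 E-box, CATCTG at -21 from the start, and the DNTT window has 3, CAAATG at -140, CACCTG at -75 and CAGATG at 28. CACCTG occurs in 20.6% of all windows, counting both strands. G and C make up 36.7% of the RAG2 window, which holds no CG pair, and 49.3% of the DNTT window, which holds 3. The median over all windows is 58.7%, with 14 CG pairs. The RAG1 window, which is not shown, has 72.3% and 32 CG pairs. The windows of the end-joining genes had 60.7% for XRCC4, 62.0% for XRCC6, 67.3% to 72.3% for the 5 windows of LIG4, and 47% and 65.7% for the 2 windows of DCLRE1C. The runs TGTGGT, the core word of RUNX sites, and TATAAA are in neither printed window, on either strand, and occur in 13.1% and 11.5% of all windows. A match to such a word is a description of the sequence and not of binding.

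A 7-base word was looked for in the 3′ UTRs because earlier work on these same libraries had picked it. It was the word that went most with higher values in TLX1 siRNA libraries, so it is no independent evidence here. The word, GCAGTAC, occurs in the longest annotated 3′ UTR of RAG1 and of DCLRE1C and in none of the other 7. The sites are chr11:36577550-36577578 on the plus strand for RAG1 and chr10:14899004-14899032 on the minus strand for DCLRE1C (GRCh38), with the word in capitals.
RAG1: ggagtccaaacGCAGTACagcagaagagt
DCLRE1C: acaggatttgaGCAGTACattggaacact

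Of the 2 genes that carry the word, RAG1 had a log2 fold change of 1.17 ± 0.44 and DCLRE1C 0.14 ± 0.10. DNTT, RAG2 and LIG4, which had the other 3 largest log2 fold changes among the 9 genes, do not carry it. Of 11093 tested genes with an annotated 3′ UTR, 6.84% carry GCAGTAC and 14.3% carry either word. Whether these words or the length of the UTR bear on any of these values was not tested.

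Among the end-joining genes, LIG4 had the largest log2 fold change. LIG4 had 91.8, 70.8 and 81.7 CPM with s46 and 94.6, 77.3 and 81.3 CPM with s47, against 46.8, 58.3 and 55.1 CPM with scrambled siRNA. The groups did not overlap, and the log2 fold change was 0.63 ± 0.12, with 0.61 for s46 and 0.66 for s47. It passed edgeR's threshold for both siRNAs together and for neither alone. The call was kept without s46 replicate 2 or without scrambled replicate 2 and was lost without any 1 of the other 7 libraries. Without scrambled replicate 1, the lowest for LIG4, the log2 fold change was 0.55. XRCC4, the partner that stabilises ligase IV, had 14.98, 16.7 and 18.1 CPM with s46 and 17.1, 16.1 and 16.8 CPM with s47, against 10.4, 17.0 and 15.7 CPM with scrambled siRNA. Its groups overlapped, and its log2 fold change was 0.21 ± 0.16, or 0.03 without scrambled replicate 1 and 0.35 without scrambled replicate 2. Per kilobase, the level of LIG4 over that of XRCC4 averaged 3.02 with s46, 3.09 with s47 and 2.32 with scrambled siRNA, and ran from 2.58 to 3.74 with s46, from 2.93 to 3.38 with s47 and from 2.09 to 2.74 with scrambled siRNA.

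XRCC5 and XRCC6, which encode the Ku heterodimer, stayed in a nearly constant ratio. XRCC5 had 823, 771 and 787 CPM with s46 and 837, 733 and 818 CPM with s47, against 558, 751 and 672 CPM with scrambled siRNA, a log2 fold change of 0.27 ± 0.12. XRCC6 had 650, 635 and 609 CPM with s46 and 685, 612 and 634 CPM with s47, against 428, 635 and 483 CPM with scrambled siRNA, a log2 fold change of 0.31 ± 0.13. Both genes overlapped between the groups, and scrambled library 1 was the lowest library for each. Without it the log2 fold changes were 0.16 for XRCC5 and 0.19 for XRCC6, and without scrambled replicate 2 they were 0.37 and 0.49, with XRCC6 then called. Without the 3 libraries numbered 1 they were 0.13 and 0.16. The level of XRCC5 over that of XRCC6 per kilobase was 0.711 to 0.838 in the 9 libraries.

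DCLRE1C had 57.0, 49.1 and 47.3 CPM with s46 and 51.5, 52.1 and 48.5 CPM with s47, against 45.3, 47.8 and 45.6 CPM with scrambled siRNA. Its log2 fold change was 0.14 ± 0.10, or 0.07 when scaled by library totals, and 1 TLX1 siRNA library, s46 library 3, lay within the scrambled range. PRKDC had 2666, 1896 and 2045 CPM with s46 and 2285, 2034 and 2010 CPM with s47, against 2680, 1673 and 2111 CPM with scrambled siRNA. Its TLX1 siRNA libraries all lay within the scrambled range, and its log2 fold change was 0.00 ± 0.16, or 0.19 without scrambled replicate 1 and -0.15 without scrambled replicate 2.

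Seen as a list, all 9 genes had log2 fold changes above 0 for both siRNAs against scrambled siRNA, but that of PRKDC was 0.00 and below 0 under 6 of the 17 other settings tried; 46.5% of all genes tested were above 0. The median of the 9 was 0.31, against -0.03 over all genes tested. DNTT and LIG4, 2 of the 9, were called, both higher, where 0.566% of all genes were called in either direction and 0.411% as higher. For s46 none of the 9 was called, against 0.174% of all genes, and for s47 only DNTT was called, against 0.33%. The same 2 genes, DNTT and LIG4, were the only ones of the 9 with every TLX1 siRNA library above every scrambled library, which held for 4.47% of all genes. Since the genes were picked with these contrasts known, nothing is read from these counts. The comparisons of s46 and of s47 share the same 3 scrambled libraries. In bulk RNA, a change in the share of cells that express a gene and a change in RNA per cell cannot be told apart.

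**Figure D4:**
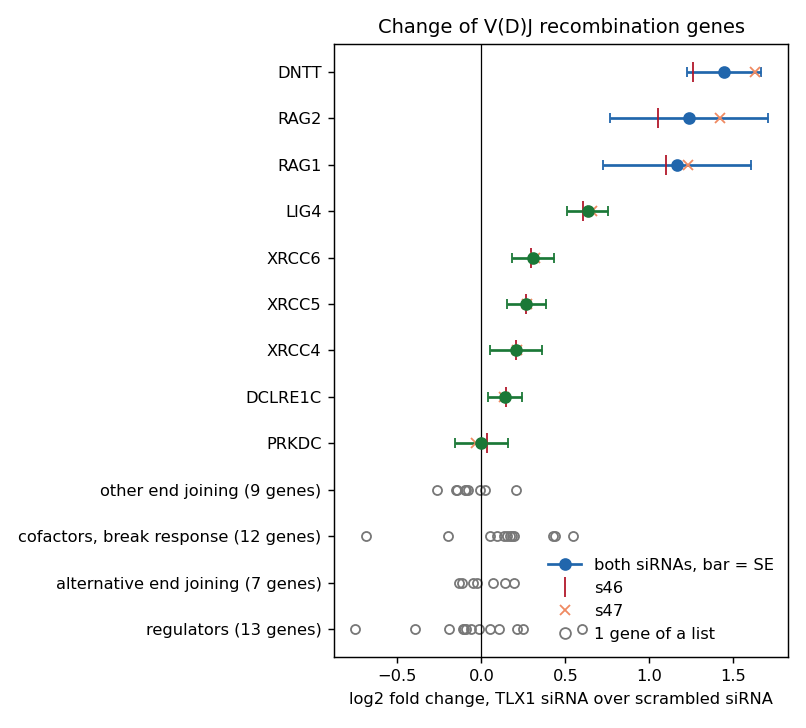
Log2 fold change of the 9 genes, TLX1 siRNA over scrambled siRNA, for both siRNAs with 1 SE (dots with bars), s46 (vertical ticks) and s47 (crosses), above the genes of 4 related lists (open circles, both siRNAs). DNTT, RAG2, RAG1 and LIG4 lie between 0.63 and 1.44, the other 5 genes between 0.00 and 0.31, and the lists between -0.75 and 0.60.

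The 2 TLX1 siRNAs could be compared with a test, since this contrast did not enter the choice of genes. In edgeR's quasi-likelihood test none of the 9 genes was called between s46 and s47, with 0% of all 16072 genes called and an adjusted p of 1.00 for each of the 9. At an unadjusted p under 0.05 in the fit by group alone, 0 of the 9 and 113 of all 16072 genes passed, and DESeq2 called 0 as well. The 113 are fewer than this cutoff would pass if no gene differed. The fit by group is thus strict for this contrast, 0 of the 9 says little, and its intervals may be too wide. A gene not called may still differ. The log2 differences of s46 over s47 ran from -0.37 for DNTT to 0.06 for PRKDC. In this fit by group alone, the 95% interval for DNTT was -0.87 to 0.14, for RAG2 it was -1.50 to 0.77 around -0.36, and for RAG1 it was -1.21 to 0.95 around -0.13. For LIG4 it was -0.35 to 0.24 around -0.05, and for XRCC5 -0.29 to 0.28 around 0.00. With the replicate numbers as a block, the log2 difference was -0.38 ± 0.11 (SE) for DNTT, -0.38 ± 0.13 for RAG2 and -0.17 ± 0.13 for RAG1. No gene was called there either.

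Measured per kilobase of merged exons (RPKM, the CPM divided by the exon length in kilobases), the 9 genes fell into 2 tiers. XRCC6, XRCC5 and PRKDC averaged 192 ± 6.44, 145 ± 4.84 and 143 ± 26.5 RPKM with s46 (SD, n = 3). With s47 they averaged 196 ± 11.4, 146 ± 10.2 and 137 ± 9.88 RPKM, and with scrambled siRNA 157 ± 32.7, 121 ± 17.7 and 140 ± 32.7 RPKM. LIG4 followed at 18.6 ± 2.39 RPKM with s46, 19.2 ± 2.06 with s47 and 12.2 ± 1.35 with scrambled siRNA, and did not overlap the 3 genes above it in any group.

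Below LIG4 the order of levels differed between groups. With scrambled siRNA it was DCLRE1C at 7.31 ± 0.22, XRCC4 at 5.37 ± 1.30, DNTT at 4.97 ± 0.95, RAG1 at 3.60 ± 1.32 and RAG2 at 2.70 ± 1.48 RPKM, and each neighbouring pair from XRCC4 down overlapped. With s46 DNTT stood directly below LIG4 at 11.9 ± 3.40 RPKM, followed by DCLRE1C at 8.08, RAG1 at 7.72, XRCC4 at 6.21 and RAG2 at 5.62 RPKM. With s47 DNTT was at 15.3 ± 3.77 RPKM and overlapped LIG4, followed by RAG1 at 8.45, DCLRE1C at 8.01, RAG2 at 7.25 and XRCC4 at 6.22 RPKM. All neighbouring pairs from DNTT down overlapped with s46 and with s47. With the length of the longest transcript in place of merged exons, 5 of the 9 ranks were kept in each group, and DCLRE1C moved up by 1 place in each.

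**Figure D5:**
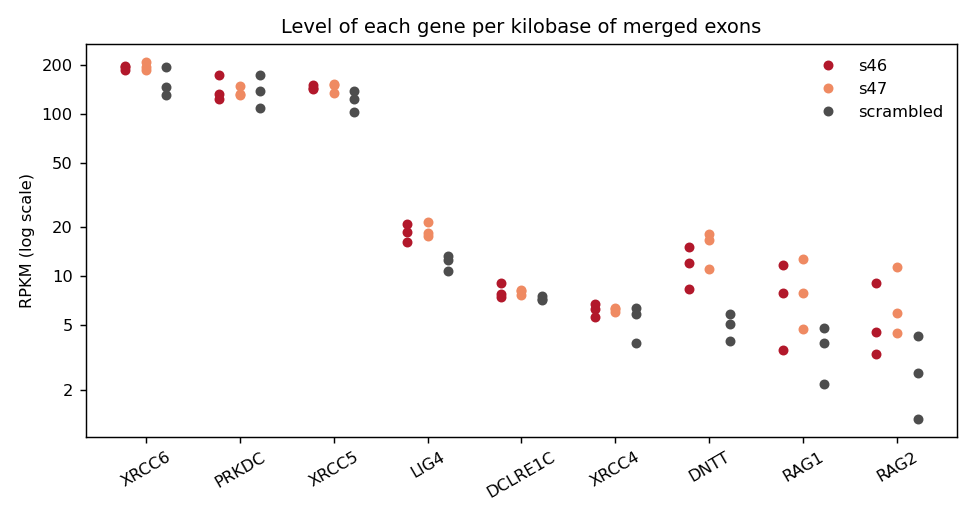
RPKM (log scale) of each of the 9 genes in every library, with s46 and s47 left of scrambled siRNA, genes ordered by their mean with scrambled siRNA. XRCC6, PRKDC and XRCC5 lie above 100 RPKM in every library, and DNTT, RAG1 and RAG2 are the only genes below LIG4 whose mean with s46 and with s47 is over 2 times that with scrambled siRNA.

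The 4 lists of related genes, 41 in all and all tested, held no gene that edgeR called in any of the 4 comparisons, and 7 (17.1%) had an unadjusted p under 0.05 for both siRNAs against scrambled siRNA, near the 17.8% of all genes tested. The lists, too, were written with earlier results of these data known, so p-values given for their genes are description and are read as no support. Their log2 fold changes had a median of -0.01, with 20 of the 41 positive and 21 negative. DESeq2 called HMGB1, RNF168 and MYB higher and MDC1 and GATA3 lower, 5 genes of the 41, where it called 3.37% of the 13577 genes to which it gave an adjusted p. For 25 of the 41 genes scrambled replicate 1 was the highest or the lowest of the 9 libraries, and that holds for all 5 that DESeq2 called. The share of all genes tested for which this holds was not counted, so nothing is read from it for these lists. The part of that library in these values was not tested.

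Among 9 other end-joining genes, 2 were above 0 and 7 below. The highest was TDP2, which removes trapped topoisomerase II from DNA ends, at 0.21 ± 0.11, followed by APTX, which repairs aborted ligations, at 0.02 ± 0.11. POLL, a gap-filling polymerase, was among the 2 lowest at -0.15 ± 0.13. NHEJ1, which encodes the XLF bridging factor, averaged 0.397 ± 0.139 CPM with TLX1 siRNA (SD, n = 6) and 0.426 ± 0.236 CPM with scrambled siRNA (SD, n = 3), too low for a firm comparison.

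Among 12 RAG cofactors and DNA-break response genes, 10 were above 0 and 2 below. HMGB1, the DNA-bending cofactor of the RAG complex, averaged 1281 ± 78.7 CPM with TLX1 siRNA (SD, n = 6) and had 663, 1116 and 859 CPM in scrambled libraries 1, 2 and 3, a log2 fold change of 0.54 ± 0.15 that missed edgeR's threshold (adjusted p 0.142). NBN, a subunit of the complex that senses breaks, had 0.44 ± 0.14 (adjusted p 0.195), and RNF168, a ubiquitin ligase of the chromatin response to breaks, had 0.43 ± 0.10 (edgeR adjusted p 0.0785, DESeq2 adjusted p 0.00296). The lowest log2 fold changes were those of MDC1, a scaffold at breaks, with 41.6 to 58.8 CPM with TLX1 siRNA and 116, 54.9 and 70.9 CPM with scrambled siRNA, at -0.69 ± 0.20 (edgeR adjusted p 0.159), and H2AFX, the histone variant marked there, at -0.20 ± 0.10 (adjusted p 0.299). RNF168 is named besides the 2 highest and 2 lowest because DESeq2 called it.

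Among 7 genes of alternative end joining, 3 were above 0 and 4 below, from FEN1, a flap nuclease, at 0.20 ± 0.13 and RBBP8, which starts end resection, at 0.14 ± 0.14, down to LIG1 at -0.11 ± 0.18 and XRCC1, a scaffold of single-strand break repair, at -0.13 ± 0.14.

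Among 13 regulators of the RAG genes or DNTT, 5 were above 0 and 8 below. MYB, a transcription factor of early lymphoid cells, averaged 632 ± 27.2 CPM with TLX1 siRNA (SD, n = 6). It had 326, 460.3 and 465 CPM in scrambled libraries 1, 2 and 3, a log2 fold change of 0.60 ± 0.13. It did not pass the threshold in edgeR (adjusted p 0.0566) and passed it in DESeq2 (adjusted p 0.000757). TCF12, an E protein, had 0.25 ± 0.11 (edgeR adjusted p 0.258). GATA3, a factor of T-cell commitment, had 32.4 to 43.6 CPM with TLX1 siRNA and 100.5, 41.0 and 45.5 CPM in scrambled libraries 1, 2 and 3, a log2 fold change of -0.75 ± 0.24 (edgeR adjusted p 0.193, DESeq2 adjusted p 0.0493), with overlapping groups. RUNX1 had -0.40 ± 0.21 (edgeR adjusted p 0.345). FOXO1, which in mouse B cells activates both RAG genes, averaged 3.76 ± 0.50 CPM with TLX1 siRNA (SD, n = 6) and 4.05 ± 0.62 CPM with scrambled siRNA (SD, n = 3).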

How the data were processed

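Total RNA of ALL-SIL cells was depleted of ribosomal RNA and made into stranded libraries, per the labels' protocols. The deposited values are raw read counts for every gene, in an unstranded column and 1 column per strand. The submitters' processing notes name the build GRCh38; aligner, counter and annotation: not given in the sources used here. The strand with most reads in genes was used; 4 lines naming no gene were left out. Names and lengths came from GENCODE 29, which matched 57492 of 58096 gene IDs. edgeR 4.0.16 (R 4.3.3) was run on all 9 libraries by group: TMM scaling, filterByExpr with a minimum count of 10, 16072 genes tested, robust quasi-likelihood F test, Benjamini-Hochberg adjusted p under 0.05 for a call. An SE is the log2 fold change over the square root of F, and 95% intervals use the t distribution with the fit's degrees of freedom. On simulated data for both siRNAs against scrambled siRNA (15730 genes), edgeR called 89 of 100 genes set to a 2-fold change, 49 of 100 set to a 1.5-fold change, and 9 unchanged genes. The simulated data held no outlying library and no effect of the replicate number, and changed genes were picked among those with higher counts. These figures are therefore no measure of power or error in the real libraries. Alternatives were DESeq2 1.42.0, other scalings, filters and strand settings, a replicate block and leaving out libraries. Genes named beyond the 9 were every list gene called, otherwise the 2 highest and 2 lowest of each list, the 3 nearest tested genes on each side of the RAG pair and of DNTT, and the 5 nearest in pattern. One gene that this rule names is not reported here. RNF168, NHEJ1 and FOXO1 fall outside this rule and were added once their values were known. The 9 genes and all lists were chosen with earlier results of these data known. Promoters are RefSeq's, matched by symbol.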

Additional observations from a re-analysis of the deposited data

How the results depend on the processing

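Over 639 alternative values of the 9 genes' log2 fold changes, 624 moved by less than the spread between replicates and 15 by more. No call changed direction. The spread is each gene's own mean SD of log2 CPM within groups, so the tally says little on the RAG genes, whose spread is wide. For RAG2 (both siRNAs) a move from 1.24 to 1.72 without scrambled replicate 3 counted as less than it. The replicate numbers were tried as a block. Libraries of the same number deviated together in 8 of 9 pairs (correlation over 0.1; range -0.03 to 0.44, against -0.31 to 0.17 for different numbers), and 7 of 9 libraries correlated best with their own number in both other groups, a hint from the data and not the design. With the replicate block, 222 genes were called for both siRNAs, 74 for s46 and 125 for s47, against 91, 28 and 53 without it. Of the 9 genes, 4 were called under the block for both siRNAs (RAG1, 1.11 ± 0.12; RAG2, 1.26 ± 0.12; DNTT; LIG4), and 3 (RAG1, RAG2, DNTT) for s46 and for s47. Between s46 and s47 the block left -0.38 ± 0.11 for DNTT, -0.38 ± 0.13 for RAG2 and -0.17 ± 0.13 for RAG1 (log2, SE; adjusted p 1.00 each), with smaller SEs than the fit by group. DESeq2 called 458, 196 and 203 genes in all in these comparisons, and 2 of the 9 (DNTT and LIG4) in each. With no filter on low counts 876, 384, 432 and, for s46 against s47, 3 genes were called, with 2 of the 9, DNTT and LIG4, for s46 and for s47. Scaled by library totals, 1 of the 9, DNTT, was called for both siRNAs, and 14 genes in all for s46. With only the groups compared, 6 genes were called for s46 and 8 for s47. Without the 3 libraries numbered 1, 33 were called for s47, and RAG1 and DNTT for both siRNAs. Leaving out 1 library at a time gave 22 (without scrambled replicate 3) to 1650 (without scrambled replicate 2) genes for both siRNAs and 0 to 3 of the 9, 4 to 225 genes and 0 to 1 for s46, 4 to 275 genes and 0 to 2 for s47, and 0 to 0 for s46 against s47. With the length of the longest transcript, 5 of 9 ranks of the levels were kept in each group. The cause of these shifts was not tested. Depth limits RAG2 and DNTT most, at 103 to 406 and 232 to 273 reads in the scrambled libraries.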
